A study of Mus musculus with 14 samples.

Results

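MPP4, the lymphoid-biased multipotent progenitors of the bone marrow, were compared between 5 young and 3 old samples, which are 8 of the 14 arrays of the series. All mice were wild-type C57BL/6, with young mice of 8 to 10 weeks and old mice of 24 months and no further allele or treatment in either group. Each array carried RNA of 20000 cells double-sorted from bone marrow as Lin-/cKit+/Sca-1+/Flk2+, amplified linearly and hybridized to an Affymetrix Mouse Gene ST 1.0 array. Samples were taken by their titles and features by 1 rule, namely probe sets with exactly 1 gene symbol and, per gene, the probe set with the highest mean over all 14 arrays, which left 19155 genes of 22115 probe sets. The samples are biological replicates by the methods, and how many mice went into each is not given in the sources used here.

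Multipotent progenitors sit between hematopoietic stem cells (HSC) and the lineage-committed progenitors, and they supply most of daily blood production. MPP4 carry the receptor tyrosine kinase Flk2, the product of Flt3, and begin to express lymphoid genes while they can still make myeloid cells. Aging of the mouse is known to reduce lymphoid output from the bone marrow.

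All values are normalized values on an exponential scale, set by the rank of a probe set on its own array. The share of probe sets at or above a value is its negative exponential, so that a value of 2.08 places a gene in the top 12.5% of the array and a value of 0.878 in the top 41.5%. Differences are given as old minus young in these units and are never folds. A value compares 1 gene between arrays, and it sets no abundance of a gene against that of another.

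Of the gate, Flt3 and Kit were present in both groups, whereas Ly6a, which encodes Sca-1, was not measured. Flt3 read 3.53, 3.43, 3.01, 2.77 and 2.86 on young arrays 1 to 5 and 3.53, 3.29 and 3.39 on the 3 old arrays, and Kit read 2.88 to 3.06 in young and 2.8 to 3.0 in old. Cd34, a sialomucin of progenitors, ranged from 3.38 to 3.51 in young and 3.37 to 3.52 in old MPP4, whereas Slamf1, which encodes CD150, stayed at 0.0864 to 0.16 in young and 0.111 to 0.118 in old. No difference in the 4 markers passed the threshold of limma (adjusted p from 0.658 to 0.933). The young arrays were not alike: across the dimmest probe sets, on a normal-score scale and after removal of each probe set's mean over the 8 arrays, young arrays 3, 4 and 5 correlated at 0.412 to 0.498 with one another, and young arrays 1 and 2 at 0.193. With the old arrays, young arrays 1 and 2 correlated at 0.0392 to 0.212 and young arrays 3 to 5 at -0.524 to -0.434. Across the brightest probe sets, on the same scale, young arrays 3 to 5 correlated at 0.436 to 0.673 with one another. There young array 1 correlated at only 0.0558 with young array 2 and at -0.395 to 0.0158 with the old arrays. Young array 2 correlated at 0.0711 to 0.217 with the old arrays. Over all probe sets young array 2 was closer to each old array (Pearson's r of 0.9874 to 0.9893) than to young arrays 3 to 5 (0.9753 to 0.9773). No label describes this division of the young arrays. Many lists and some genes are therefore also given against young arrays 1 and 2 alone and against young arrays 3 to 5 alone. Where these values are missing, a like difference against both sets is not implied. Xist, a sex-linked gene, was above 1 on young arrays 1, 4 and 5 and on none of the old arrays. The methods used animals of both sexes, and the sex of each sample is not given in the sources used here. Sex and age therefore cannot be fully told apart. Without the arrays with Xist above 1, limma called 0 genes, with a smallest adjusted p of 0.421. The young arrays were also part of an earlier series, which is not stated for the old ones, so series and age cannot be told apart.

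Differences between the 2 groups were small. Among 19155 genes limma called 0 at an adjusted p under 0.05 (0.0%), the lowest adjusted p being 0.0585, and a SAM statistic rebuilt after the test named in the methods called 14 (0.0731%). Old MPP4 had the higher mean for 9533 genes (49.8%). An unadjusted p under 0.05 was reached by 9.77% of genes, of which 862 had a higher (4.5%) and 1009 a lower mean in old MPP4 (5.27%). All 3 old arrays were above all 5 young arrays for 628 genes (3.28%) and below them for 769 (4.01%). The median absolute difference was 0.0425, against a median SD of 0.077 among young and 0.044 among old arrays, and only 51 genes differed by more than 0.5. Bright genes leaned to the old side: among the brightest 6385 genes 425 were higher and 393 lower at an unadjusted p under 0.05, against 286 and 427 among the 6385 of middle brightness. With young arrays 3 to 5 alone limma called 2203 genes, with young arrays 1 and 2 alone 0, without young array 1 2 and without young array 2 15. Since no gene passed the threshold of limma with all young arrays, the values below are descriptions of a ranking.

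**Figure D1:**
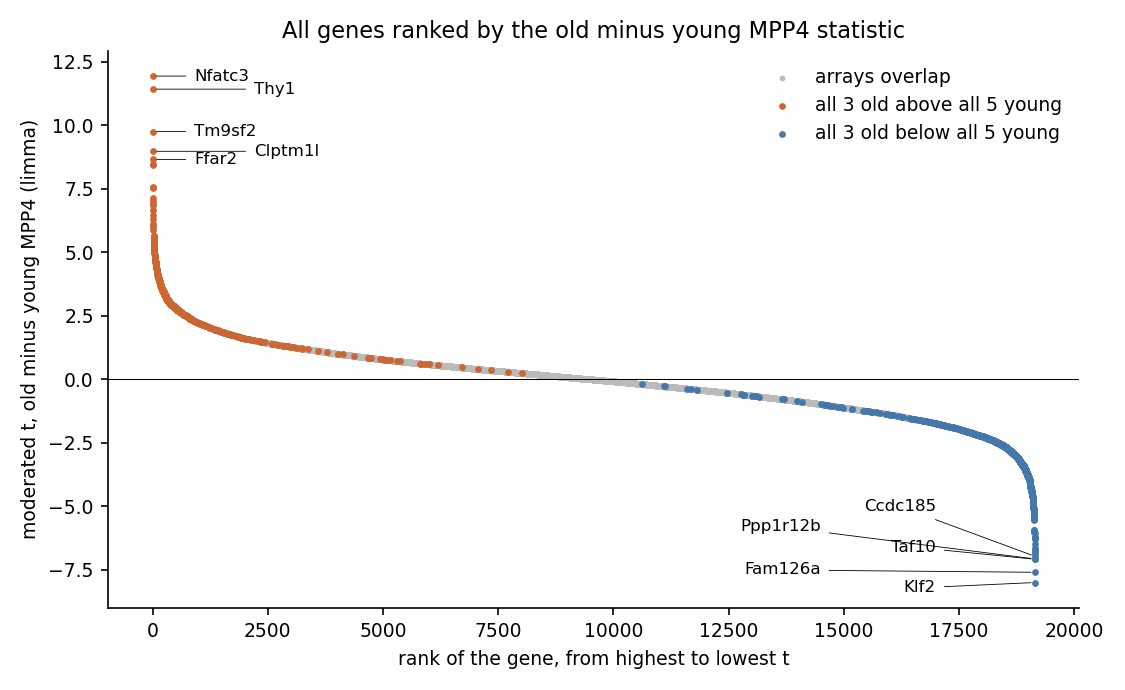
Moderated t of old minus young MPP4 (y axis, limma) for each of the 19155 genes in order of rank (x axis). Orange points mark the 628 genes with all 3 old arrays above all 5 young arrays, blue points the 769 with all 3 below, and grey points the rest; Nfatc3 and Thy1 stand at the upper end and Klf2 and Fam126a at the lower end.

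The genes at the head of the ranking are given 1 by 1, since they were not tested as a group. They were taken by t from the genes without overlap between groups, so their separation follows from the choice. Nfatc3, a transcription factor switched on by calcium through calcineurin, read 2.05, 2.05, 2.07, 2.12 and 2.1 in young and 2.39, 2.33 and 2.37 in old MPP4. The lowest old array exceeded the highest young array by 0.218, and the difference was 0.289 ± 0.0242 (SE, limma adjusted p = 0.0585). Thy1, a glycolipid-anchored glycoprotein of T cells and of some early progenitors, read 0.866, 0.909, 0.877, 0.857 and 0.882 in young and 1.2, 1.35 and 1.3 in old. The young arrays lay closer together than the old ones, all of which were higher, with a difference of 0.407 ± 0.0356 (SE, limma adjusted p = 0.0585). Hivep2, a zinc finger protein that binds motifs of the NF-kB type, was dim in both groups at 0.341, 0.389, 0.262, 0.42 and 0.32 in young and 0.672, 0.597 and 0.599 in old. It differed by 0.276 ± 0.0393 (SE, limma adjusted p = 0.191), without overlap.

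Ffar2, the receptor for short-chain fatty acids, read 0.96, 0.99, 0.979, 1.05 and 1.04 in young and 1.37, 1.24 and 1.31 in old MPP4, with a difference of 0.303 ± 0.0349 (SE, limma adjusted p = 0.134). Ptger3, a receptor for prostaglandin E2, was tighter, with 1.02 to 1.09 on the young arrays and 1.18 to 1.24 on the old ones (0.149 ± 0.0225). Both were higher on every old array. Among membrane and secretory proteins, Tm9sf2, an endosomal and Golgi protein, differed by 0.218 ± 0.0224 from young values of 1.67 to 1.74, and Clptm1l, a multipass protein of the endoplasmic reticulum, by 0.287 ± 0.032 from 0.967 to 1.07. Plscr1, a phospholipid scramblase, read 0.734 to 0.828 in young and 0.986 to 1.01 in old, and Galnt6, which starts O-linked glycosylation, 0.592 to 0.732 in young and 0.912 to 0.952 in old. Each of these 4 had all old arrays above all young arrays, at limma adjusted p of 0.117 to 0.191.

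The enzymes Ide and Vrk2 and the DNA repair genes Fanci and Parpbp completed this group together with Cd74 and Zik1. Ide, the insulin-degrading enzyme, read 2.01, 2.01, 1.9, 2.0 and 2.02 in young and 2.44, 2.45 and 2.7 in old MPP4, with young array 3 below the other 4. Parpbp, which encodes a PARP1-binding inhibitor of homologous recombination, read 0.517, 0.757, 0.741, 0.751 and 0.783 in young and 1.08, 1.11 and 1.13 in old, with young array 1 far below its group. The differences were 0.54 ± 0.064 (SE, limma adjusted p = 0.134) and 0.396 ± 0.0613 (SE, limma adjusted p = 0.208). Against young arrays 1 and 2 alone they were 0.519 and 0.469, and against young arrays 3 to 5 alone 0.555 and 0.347. Vrk2, a serine/threonine kinase, differed by 0.179 ± 0.0236, Fanci, of the Fanconi anemia core pair bound to damaged DNA, by 0.249 ± 0.0362, and Zik1, a zinc finger protein that interacts with a heterogeneous nuclear ribonucleoprotein, by 0.365 ± 0.0485.

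Single genes at the lower end of the ranking are given next, chosen by the same rule, so that their separation too follows from the choice. Klf2, a Krüppel-like factor that keeps lymphocytes quiescent, read 1.59, 1.55, 1.51, 1.6 and 1.55 in young and 1.32, 1.38 and 1.35 in old MPP4. All old arrays were below all young ones, with a difference of -0.21 ± 0.0263 (SE, limma adjusted p = 0.169). Taf10, a subunit shared by the TFIID and SAGA complexes, read 2.72, 2.64, 2.81, 2.87 and 2.78 in young and 2.39, 2.41 and 2.43 in old, where the 3 old arrays lay closer together than the young ones and below all of them. Fam126a, which encodes a scaffold of the phosphatidylinositol 4-kinase complex, differed by -0.181 ± 0.0239 and Sec22b, a SNARE of the early secretory pathway, by -0.258 ± 0.0384. Hgs, a sorting protein of endosomes, differed by -0.19 ± 0.0304 and Svip, a small partner of the ATPase VCP, by -0.346 ± 0.0536, with young array 1 highest in its group for Svip at 2.62. Firre, a long noncoding RNA made from the X chromosome, read 2.25, 2.15, 2.24, 2.25 and 2.16 in young and 1.86, 1.85 and 1.6 in old. It was near 2.21 on young arrays with and without Xist and lowest on old array 3, and the SAM statistic called it.

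The other genes of this end had like sizes. Ppp1r12b, a regulatory subunit of myosin phosphatase, read 1.01 to 1.11 in young and 0.854 to 0.896 in old, and Tpm2, a tropomyosin, 1.4 to 1.56 in young and 1.16 to 1.23 in old. Psmg4, a chaperone of proteasome assembly, read 1.53 to 1.63 in young and 1.36 to 1.41 in old, and Ndufb7, a subunit of respiratory complex I, 2.69 to 2.79 in young and 2.54 to 2.56 in old. Snora30, a small nucleolar RNA of the H/ACA type, read 1.84, 1.78, 1.68, 1.58 and 1.51 in young and 1.27, 1.1 and 1.06 in old MPP4. Ccdc185, Ppp1r37, a regulator of protein phosphatase 1, and Tchp, a protein of keratin filaments and centrioles, differed by -0.165 ± 0.0236, -0.248 ± 0.0364 and -0.108 ± 0.0173. Over the 15 lowest genes without overlap, limma adjusted p ranged from 0.169 upward.

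**Figure D2:**
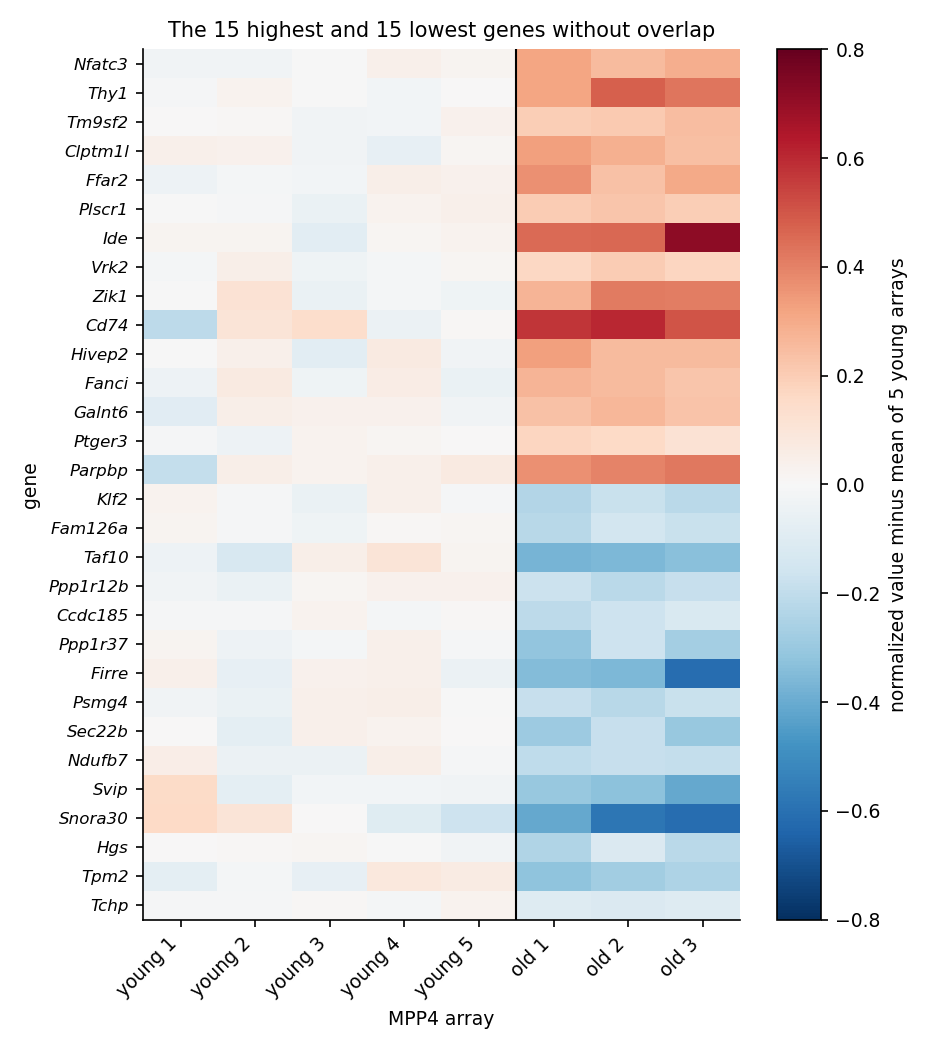
Normalized value of the 15 highest and 15 lowest genes by moderated t without overlap (rows) on each of the 8 MPP4 arrays (columns), shown as the difference from the mean of the 5 young arrays (color). By the choice of genes, the old arrays differ from the young mean in 1 direction for each gene, whereas single young arrays such as array 1 for Cd74 and Parpbp deviate too.

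Genes of mitosis lay high in the ranking. Of 32 measured genes of spindle assembly and kinesin motors, 29 had a higher mean in old MPP4, 20 of them at an unadjusted p under 0.05 (4.5% over all genes), 14 without overlap (3.28%), and 26 lay in the top 10% of the ranking. The median difference of the list was 0.271, against -0.000171 over all genes. Of 39 genes of the kinetochore and the spindle checkpoint, 36 had a higher mean, 16 at an unadjusted p under 0.05 and 8 without overlap, with a median of 0.2. Condensin and cohesin genes (median 0.138, 21 of 24 higher, 6 at an unadjusted p under 0.05) and mitotic kinases, cyclins and subunits of the anaphase-promoting complex (median 0.0852, 27 of 35 higher, 9 at an unadjusted p under 0.05 and 2 lower) were placed likewise. Mitosis genes were chosen as lists with earlier results of these data known, so these counts describe the list and are no independent evidence of its direction.

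Promoters are shown for Hmmr, Ckap2l, Prr11 and Ska2, because Hmmr and Prr11 were among the largest positive differences, Ckap2l was a leading member of the spindle list, Ska2 neighbours Prr11, and all carry the letters that cell cycle promoters are known for. Promoters of many genes of the G2 and M phases hold a cell cycle homology region, with the core TTTGAA, near the transcription start and boxes with the letters CCAAT, bound by NF-Y, further upstream. The sequences are those of RefSeq (GRCm38.p6), from 250 bases before to 50 bases after the annotated start in the direction of transcription. Capitals mark TTTGAA and CCAAT on either strand, so that TTCAAA and ATTGG are the same letters read on the opposite strand. The windows are chr11:40733388-40733687 (minus strand), chr2:129297163-129297462 (minus strand), chr11:87108665-87108964 (minus strand) and chr11:87109011-87109310 (plus strand).
Hmmr: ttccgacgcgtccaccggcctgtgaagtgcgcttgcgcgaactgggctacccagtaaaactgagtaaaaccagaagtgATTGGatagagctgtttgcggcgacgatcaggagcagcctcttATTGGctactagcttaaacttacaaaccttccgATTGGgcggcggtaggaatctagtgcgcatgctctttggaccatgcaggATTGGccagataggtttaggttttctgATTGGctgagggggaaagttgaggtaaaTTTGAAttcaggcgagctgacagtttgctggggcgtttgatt
Ckap2l: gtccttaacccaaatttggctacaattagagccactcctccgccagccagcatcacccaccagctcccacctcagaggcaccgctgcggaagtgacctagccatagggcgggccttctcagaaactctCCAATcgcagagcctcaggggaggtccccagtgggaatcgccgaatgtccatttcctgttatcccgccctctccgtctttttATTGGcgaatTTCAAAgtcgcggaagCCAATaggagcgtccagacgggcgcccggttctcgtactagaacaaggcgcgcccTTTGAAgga
Prr11: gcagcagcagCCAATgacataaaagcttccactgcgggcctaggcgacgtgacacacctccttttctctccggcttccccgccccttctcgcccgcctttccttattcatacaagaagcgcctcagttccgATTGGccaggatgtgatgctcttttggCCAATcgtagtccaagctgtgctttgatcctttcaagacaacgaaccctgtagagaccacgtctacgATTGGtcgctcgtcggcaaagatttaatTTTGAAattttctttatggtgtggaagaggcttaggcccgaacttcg
Ska2: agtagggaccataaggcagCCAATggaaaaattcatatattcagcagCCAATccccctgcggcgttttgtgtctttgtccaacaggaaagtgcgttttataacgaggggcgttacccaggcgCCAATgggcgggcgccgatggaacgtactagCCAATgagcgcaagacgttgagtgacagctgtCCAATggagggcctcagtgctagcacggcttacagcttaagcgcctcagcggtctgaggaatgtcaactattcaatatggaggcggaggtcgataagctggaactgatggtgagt
Hmmr, Ckap2l and Prr11 each hold TTTGAA near the start site beside 3 or more CCAAT boxes, and Ska2 holds 5 CCAAT boxes and no TTTGAA.

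These letters were frequent in the promoters of the mitosis lists and not at either end of the ranking as a whole. Of 15214 measured genes with a promoter in the table, 15.2% held TTTGAA, 38.2% CCAAT and 6.09% both. Of the 27 spindle and kinesin genes with a promoter, 74.1% held TTTGAA, 66.7% CCAAT and 55.6% both. For the 33 kinetochore genes the shares of TTTGAA and of CCAAT were 42.4% and 69.7%, and for the 41 DNA replication genes 14.6% and 56.1%. The E2F letters TTTCGCGC were in 0.408% of all promoters, in 14.6% of those of DNA replication genes and in 0 of those of spindle genes. Among the 100 genes highest by t, 80 had a promoter, and 13.8% of them held TTTGAA and 41.2% CCAAT. For the 100 lowest, with 81 promoters, the shares were 9.88% and 40.7%. A match is a description of the letters, and binding was not measured.

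Hmmr, which encodes a hyaluronan receptor that organizes spindle poles, read 0.755, 1.74, 1.15, 1.33 and 1.12 in young and 1.75, 2.0 and 2.03 in old MPP4. Young array 1 was lowest by far and young array 2 came close to old array 1, and the difference was 0.706 ± 0.202 (SE, limma adjusted p = 0.391). Ckap2l, a microtubule-associated protein, read 0.9, 1.44, 0.846, 0.982 and 0.889 in young and 1.52, 1.6 and 1.57 in old, again with young array 2 highest in its group (0.55 ± 0.135, SE, limma adjusted p = 0.35). The kinesin Kif4, a motor that compacts chromosomes, read 1.43, 1.57, 1.41, 1.47 and 1.5 in young and 1.65, 2.02 and 1.96 in old. Tacc3, a stabilizer of kinetochore fibers, read 1.9 to 2.1 in young and 2.23 to 2.33 in old (0.259 ± 0.0516, SE, limma adjusted p = 0.304). In the kinetochore list Mad2l1, the core inhibitor of the spindle checkpoint, differed by 0.168 ± 0.0392 from young values of 2.74 to 2.88, Birc5 (survivin) by 0.258 ± 0.0765 and the large scaffold Knl1 by 0.483 ± 0.145. Cdc27, a subunit of the anaphase-promoting complex, read 2.14, 2.5, 2.28, 2.26 and 2.31 in young and 2.71, 2.62 and 2.59 in old, and Mastl, the Greatwall kinase, 0.664, 0.914, 0.763, 1.13 and 1.04 in young and 1.31, 1.55 and 1.34 in old. Both differed without overlap, by 0.343 ± 0.0747 and 0.497 ± 0.117.

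Mean values of the lists show what the young arrays contributed. Spindle and kinesin genes averaged 1.5, 1.85, 1.63, 1.72 and 1.64 on young arrays 1 to 5 and 1.85, 2.02 and 1.97 on the old arrays, so that old array 1 was level with young array 2. Kinetochore genes averaged 1.35, 1.67, 1.56, 1.63 and 1.58 in young and 1.66, 1.82 and 1.78 in old, with an overlap of young array 2 and old array 1. Young array 1 was the lowest array in both lists. Against young arrays 1 and 2 alone the medians were 0.254 and 0.233, and against young arrays 3 to 5 alone 0.31 and 0.175. Without young array 1, the spindle list had 19 genes higher and 2 lower at an unadjusted p under 0.05 and the kinetochore list 17 and 0, when 1457 and 1411 of all genes passed. The median of condensin and cohesin genes was 0.0867 without young array 1. For mitotic kinases, cyclins and subunits of the anaphase-promoting complex the median was 0.0554 against young arrays 1 and 2 and 0.152 against 3 to 5.

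**Figure D3:**
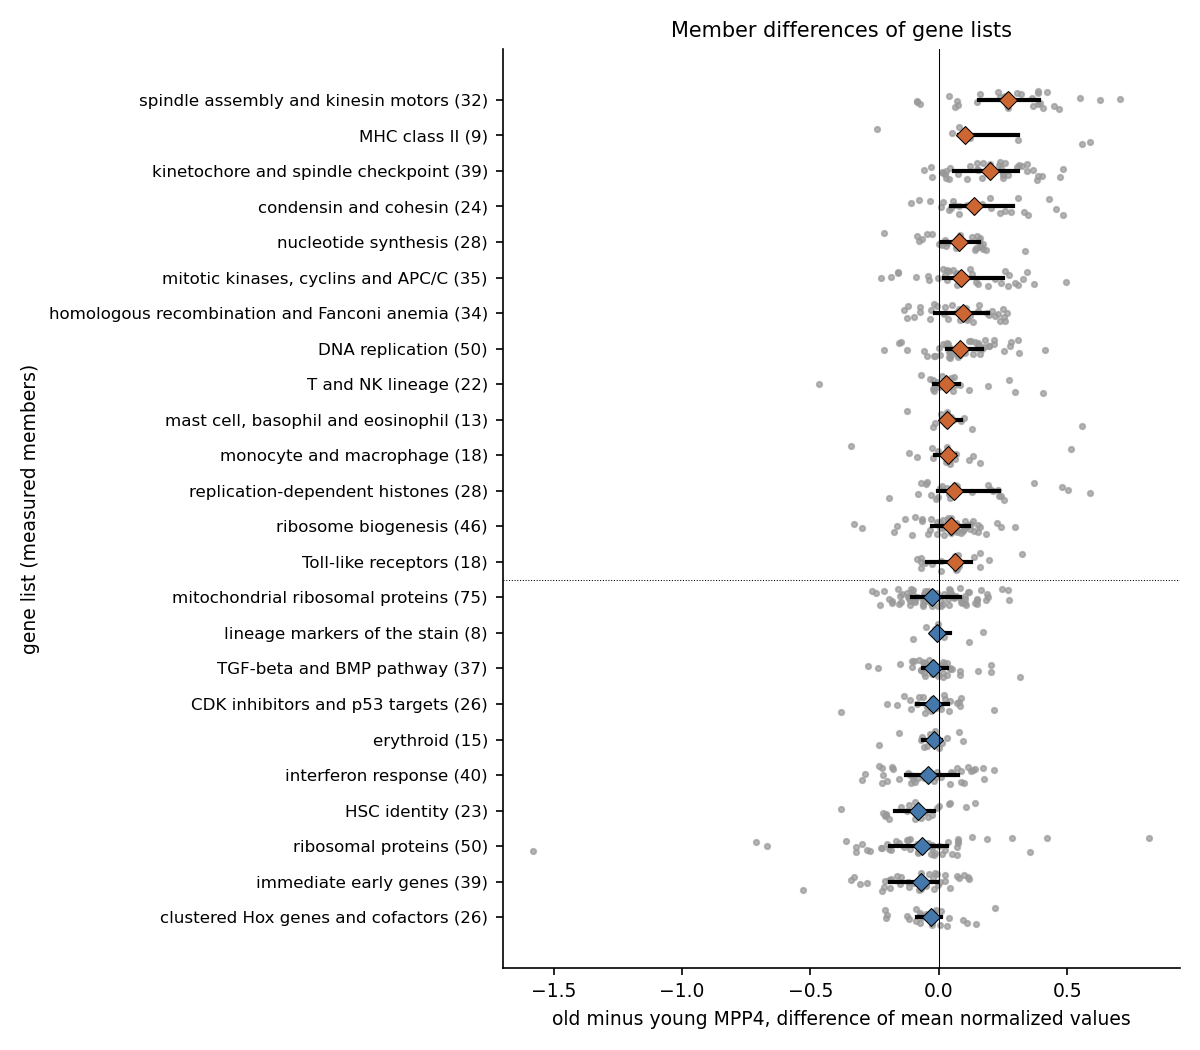
Old minus young MPP4 difference of each measured member (grey points), the median (diamond) and the middle 50% (bar) for the lists with the highest and the lowest median percentile in the ranking; the number of measured genes is in parentheses. Spindle, MHC class II and kinetochore genes lie mostly to the right of 0, and ribosomal protein, immediate early and Hox genes mostly to the left.

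Genes that act before mitosis had medians below that of the spindle list. DNA replication genes had a median difference of 0.0828, with 42 of 50 higher. At an unadjusted p under 0.05, 8 were higher and 1 lower, against 4.5% and 5.27% of all genes. Their median was 0.0957 against young arrays 1 and 2 and 0.109 against 3 to 5. Gins1, a subunit of the replicative helicase, read 1.71, 1.76, 1.24, 1.69 and 1.61 in young and 1.81, 2.06 and 2.18 in old MPP4, whereas Gins3, of the same complex, read 1.79, 1.59, 1.57, 1.61 and 1.55 in young and 1.25, 1.48 and 1.49 in old. The pair thus differed in opposite directions, by 0.414 ± 0.136 and -0.215 ± 0.0748, both without overlap. Homologous recombination and Fanconi anemia genes had a median of 0.0933 (24 of 34 higher), and nucleotide synthesis genes one of 0.0785 (21 of 28). The latter was 0.0149 against young arrays 1 and 2 alone and 0.103 against young arrays 3 to 5. Esco2, the acetyltransferase of cohesin in S phase, was among the 14 genes that the SAM statistic called, with 0.637, 0.857, 0.761, 0.962 and 0.966 in young and 1.25, 1.25 and 1.3 in old. Replication-dependent histones depended on the young arrays: their mean values were 1.92, 1.89, 1.7, 1.52 and 1.54 in young and 1.85, 1.91 and 1.76 in old, and their median of 0.06 turned to -0.0385 against young arrays 1 and 2 alone. E2f8, a repressor of E2F targets, and Cks2, a cofactor of cyclin-dependent kinases, differed by 0.412 ± 0.119 and 0.272 ± 0.0756, and Tfdp1, the dimer partner of E2F, by -0.174 ± 0.0468.

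**Figure D4:**
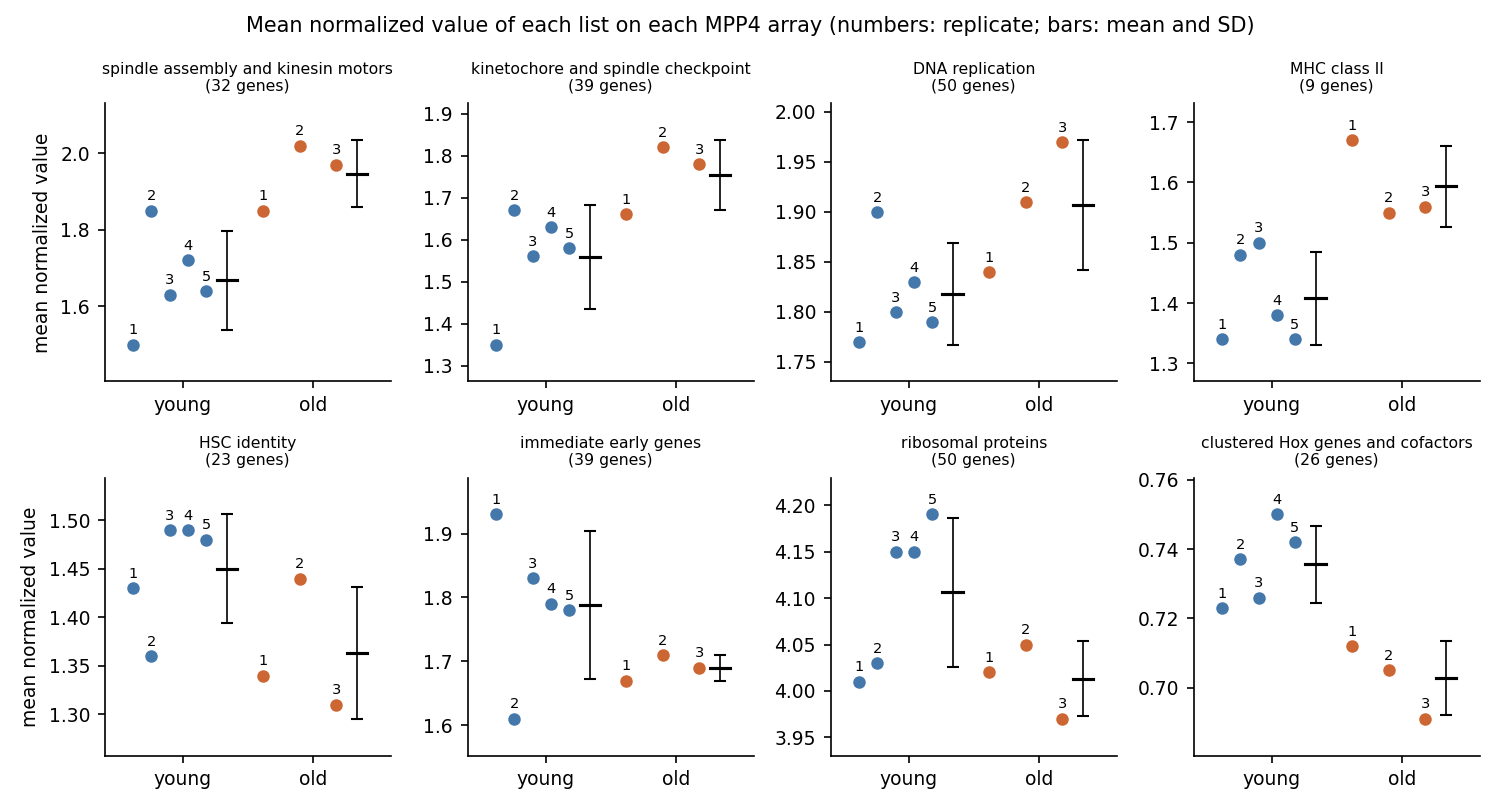
Averages of normalized values over the genes of 8 lists, by young (blue) and old (orange) MPP4 array, with replicate numbers above the points and the group mean with its SD beside them. The y axes differ between panels and do not start at 0; MHC class II and Hox genes show no overlap between the 3 old and 5 young arrays, and ribosomal protein genes are low on young arrays 1 and 2 as on the old arrays.

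Genes of antigen presentation by MHC class II were higher on every old array when averaged. The 9 measured genes averaged 1.34, 1.48, 1.5, 1.38 and 1.34 on the young and 1.67, 1.55 and 1.56 on the old arrays, and 8 of them had a higher mean (4 at an unadjusted p under 0.05 against 4.5% of all genes, 3 without overlap against 3.28%). The median difference was 0.1, and it was 0.184 and 0.137 against young arrays 1 and 2 and 3 to 5. Cd74, the invariant chain, read 0.739, 1.05, 1.09, 0.904 and 0.957 in young and 1.52, 1.55 and 1.45 in old MPP4. H2-Aa, the alpha chain of I-A, read 1.22, 1.84, 2.15, 1.89 and 1.9 in young and 2.4, 2.42 and 2.34 in old. In both genes young array 1 was the lowest and the old arrays lay close together above all young arrays. Ciita, the master coactivator of the class II genes, was dim at 0.416 to 0.569 in young and 0.54 to 0.579 in old, and its groups overlapped (0.079 ± 0.0401, SE, limma adjusted p = 0.567). H2-Eb1 (0.121 ± 0.163), H2-DMa (0.0506 ± 0.155) and H2-Ob (-0.24 ± 0.201), an inhibitor of peptide loading, overlapped too.

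The promoter of H2-Aa is shown because class II promoters are known for an X box, which in part resembles a cyclic AMP response element, followed by a Y box with CCAAT. The window is chr17:34287774-34288073 (minus strand, GRCm38.p6), and capitals mark TGACGTCA and the reverse letters of CCAAT.
H2-Aa: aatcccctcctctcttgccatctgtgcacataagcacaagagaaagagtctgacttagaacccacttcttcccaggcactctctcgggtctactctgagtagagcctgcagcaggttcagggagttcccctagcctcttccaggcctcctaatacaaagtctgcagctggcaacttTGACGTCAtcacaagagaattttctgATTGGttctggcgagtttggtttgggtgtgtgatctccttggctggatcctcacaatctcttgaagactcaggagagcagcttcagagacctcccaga
TGACGTCA was in 2.5% of all 15214 promoters and in only 1 of the 6 class II promoters in the table, that of H2-Aa printed here. CCAAT was in 83.3% of these 6 and in 38.2% of all promoters.

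Class I genes and the interferon response had members on both sides. The class I and peptide loading list had 11 of 17 genes higher (median 0.0427). At an unadjusted p under 0.05, 1 was higher and 2 lower, against 4.5% and 5.27% of all genes. Psmb9, a subunit of the immunoproteasome, read 3.7, 3.65, 4.02, 3.68 and 3.67 in young and 3.61, 3.44 and 3.4 in old MPP4. Of 40 interferon response genes 25 had a lower mean (median -0.0431). At an unadjusted p under 0.05, 3 were lower and 2 higher, against 5.27% and 4.5% of all genes. Ifi27, an interferon-induced mitochondrial protein, differed by -0.301 ± 0.0762, and Irf9, the DNA-binding subunit of the interferon-activated factor ISGF3, by -0.223 ± 0.0731, both without overlap, while Gbp3, a guanylate-binding protein, differed by 0.142 ± 0.0374. The median of the list was -0.069 against young arrays 1 and 2 and 0.00553 against young arrays 3 to 5, so its direction depended on the young arrays used.

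Of 36 cytokine and growth factor receptors 20 had a higher mean (median 0.0119). At an unadjusted p under 0.05, 2 were higher and 0 lower, a share near that of all genes (4.5% and 5.27%). Their median was -0.0257 against young arrays 1 and 2 and 0.0116 against 3 to 5. Toll-like receptors had 12 of 18 higher (median 0.0641), with 2 higher and 0 lower at an unadjusted p under 0.05. The median of this list was 0.00942 against young arrays 1 and 2 and 0.0633 against 3 to 5. The receptors named next were picked from these lists and the ranking. Ifngr1, the ligand-binding chain of the interferon gamma receptor, read 2.22, 2.37, 2.17, 2.27 and 2.12 in young and 2.58, 2.62 and 2.45 in old MPP4 (0.32 ± 0.0614, SE, limma adjusted p = 0.298). Il18r1, the interleukin 18 receptor, read 0.546, 1.22, 1.15, 1.07 and 1.08 in young and 1.72, 1.23 and 1.56 in old, where young array 1 was low and the lowest old array lay only 0.0142 above the highest young array. Clec4e, a C-type lectin that senses mycobacterial and damage-derived ligands, read 0.443, 0.633, 0.75, 0.833 and 0.98 in young and 1.31, 1.39 and 1.33 in old and was called by the SAM statistic. The 3 genes had no overlap between groups. Tlr6, which pairs with Tlr2 on lipopeptides, differed by 0.16 ± 0.0296 from dim young values of 0.341 to 0.442. Response genes of NF-kB and of the cytokines TNF and IL-1 had a median of 0.00461, with 1 of 37 genes higher and 0 lower at an unadjusted p under 0.05. Their median was -0.0284 against young arrays 1 and 2 and 0.0167 against 3 to 5.

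Transcription factors of hematopoiesis had a median near 0 as a list (median 5.43e-05, 27 of 53 higher). The median was -0.0502 against young arrays 1 and 2 and 0.0481 against 3 to 5, so its direction depended on the young arrays used. At an unadjusted p under 0.05, 9 had a higher mean and 3 a lower one, against 4.5% and 5.27% of all genes. Beside Nfatc3 the higher genes included Gata3, a regulator of T cells and of stem cells, at 0.589, 0.595, 0.434, 0.427 and 0.534 in young and 0.799, 0.961 and 0.684 in old MPP4. Its groups did not overlap (0.299 ± 0.0702, SE, limma adjusted p = 0.323). Runx3 read 1.82, 1.53, 1.5, 1.46 and 1.41 in young and 1.86, 1.82 and 1.84 in old, where young array 1 lay among the old arrays. Etv6, an Ets-family repressor that stem cells need, differed by 0.193 ± 0.0625 without overlap, and Id2, an inhibitor of E proteins, by 0.205 ± 0.0669 with overlap. Pbx3, a Hox cofactor, read 0.504 to 0.713 in young and 0.745 to 0.88 in old, without overlap (0.218 ± 0.0555, SE, limma adjusted p = 0.361).

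Hox genes themselves lay on the other side. Of 26 clustered Hox genes and cofactors 18 had a lower mean, 5 at an unadjusted p under 0.05 (5.27% over all genes) and 4 without overlap, and the list averaged 0.723 to 0.75 on the young and 0.691 to 0.712 on the old arrays. The size was small, with a median of -0.0317, and it was -0.0321 and -0.0355 against young arrays 1 and 2 and 3 to 5. Hoxb9 read 0.769, 0.879, 0.87, 0.833 and 1.03 in young and 0.661, 0.699 and 0.656 in old, Hoxb3 1.11 to 1.24 in young and 1.0 to 1.1 in old. Hoxb2, of the same cluster, went the other way with 0.327 to 0.405 in young and 0.434 to 0.462 in old. HSC identity genes had a median of -0.0826 (18 of 23 lower). Of these genes 4 were lower at an unadjusted p under 0.05 (5.27% over all genes) and 0 without overlap (4.01%). The median came to -0.0154 against young arrays 1 and 2 and -0.115 against young arrays 3 to 5. Meis1, a Hox partner of stem cells, read 3.1, 2.93, 3.16, 3.18 and 3.25 in young and 2.91, 3.07 and 2.77 in old, and old array 2 lay within the young range.

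Lymphoid priming genes, which mark the identity of MPP4, split the young arrays more than the ages. The list averaged 1.64, 1.66, 1.42, 1.45 and 1.47 on the young and 1.75, 1.53 and 1.56 on the old arrays, and its median of 0.0709 was -0.0379 against young arrays 1 and 2 and 0.138 against 3 to 5. Dntt, the template-independent polymerase of antigen receptor rearrangement, read 3.32, 3.47, 2.81, 2.97 and 2.9 in young and 3.63, 3.21 and 3.32 in old. Il7r, the interleukin 7 receptor, read 0.563, 0.907, 0.183, 0.226 and 0.436 in young and 0.937, 0.418 and 0.692 in old. In both genes young arrays 1 and 2 lay within the old range and young arrays 3 and 4 below it. Ly6d, a marker of B-lineage commitment, read 0.778, 0.948, 0.685, 0.532 and 0.58 in young and 1.29, 0.998 and 0.934 in old, with young array 2 above old array 3 (0.369 ± 0.116, SE, limma adjusted p = 0.426). Mpo, the myeloperoxidase of myeloid progenitors, read 3.39, 3.37, 2.9, 2.89 and 2.62 in young and 3.26, 3.19 and 3.16 in old. The median of the myeloid progenitor list was 0.0356 over all young arrays, 0.00989 against 1 and 2 and 0.102 against 3 to 5. In this list 16 genes were higher and 9 lower, 2 and 0 at an unadjusted p under 0.05 (4.5% and 5.27% over all genes). Ctsg, of the same list, differed without overlap by 0.566 ± 0.162 (SE, limma adjusted p = 0.391). Its difference was 0.487 against young arrays 1 and 2 and 0.619 against 3 to 5.

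Lists of markers of mature and other cell types, measured as a check on the sort, averaged as follows beside a mean over all genes of 0.91 to 0.913 in young and 0.912 to 0.915 in old. T and NK lineage genes averaged 0.508 to 0.538 on the young and 0.559 to 0.577 on the old arrays, with 13 of 22 higher. Among them only Thy1 and Gata3 passed an unadjusted p of 0.05, both higher in old, against 4.5% of all genes. Cd3e, of the T cell receptor complex, read 0.548 to 0.862 in young and 0.74 to 0.833 in old. Dendritic cell genes averaged 0.841 to 0.973 in young and 0.915 to 0.995 in old (7 of 12 higher). At an unadjusted p under 0.05, 3 were higher and 2 lower, against 4.5% and 5.27% of all genes. Clec9a, a receptor of cross-presenting dendritic cells, read 0.0826 to 0.11 in young and 0.172 to 0.236 in old. Zbtb46, of the same list, went the other way with 0.367 to 0.461 in young and 0.296 to 0.346 in old. B lineage genes averaged 0.751 to 1.09 in young and 0.838 to 0.944 in old (9 of 16 higher), monocyte and macrophage genes 0.728 to 0.764 in young and 0.756 to 0.837 in old (12 of 18), and mast cell, basophil and eosinophil genes 0.312 to 0.42 in young and 0.382 to 0.43 in old (10 of 13). The median differences of the B lineage, dendritic and mast cell lists were -0.0633, -0.0282 and -0.00546 against young arrays 1 and 2. They were 0.0522, 0.0523 and 0.0643 against young arrays 3 to 5. For scale, 1223 odorant and pheromone receptor genes averaged 0.149 to 0.165 in young and 0.157 to 0.161 in old. The part of other cells in the MHC class II and Thy1 values was not tested. In sorted cells measured in bulk, fewer cells of a type and less RNA per cell cannot be told apart.

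Immediate early genes, which respond within minutes to stimulation and to cell handling, had a median difference of -0.0678, with 30 of 39 lower. At an unadjusted p under 0.05, 5 were lower (5.27% over all genes). Without overlap 2 were lower, a share near the 4.01% of all genes. Their median was -0.0679 against young arrays 1 and 2 and -0.0842 against 3 to 5. Their mean values were 1.93, 1.61, 1.83, 1.79 and 1.78 on the young and 1.67, 1.71 and 1.69 on the old arrays, so that young array 1 was highest and young array 2 lowest of all 8. Fosb, an AP-1 subunit, read 3.68, 2.87, 3.57, 3.44 and 3.38 in young and 2.66, 2.96 and 2.95 in old, and Klf4 1.25, 0.697, 0.95, 1.13 and 0.994 in young and 0.551, 0.708 and 0.721 in old. In both, young array 2 lay within the old range. Dusp5, a nuclear phosphatase of ERK, differed without overlap by -0.118 ± 0.0412.

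Genes of the ribosome and of energy metabolism were mixed. Of 50 ribosomal protein genes 34 had a lower mean (median -0.0658), 9 of them at an unadjusted p under 0.05 (5.27% over all genes). Their median was -0.0155 against young arrays 1 and 2 and -0.0876 against 3 to 5. Young arrays 1 and 2 (4.01 and 4.03) lay within the old range of 3.97 to 4.05. Rps10 and Rps21 differed without overlap by -0.0665 ± 0.0213 and -0.266 ± 0.112. Eif3i, a subunit of an initiation factor, read 2.5 to 2.63 in young and 2.35 to 2.43 in old, whereas Eif1a, another initiation factor, read 2.02 to 2.11 in young and 2.17 to 2.35 in old, both without overlap. Taf1d, a factor of RNA polymerase I that hosts small nucleolar RNAs in its introns, read 2.54, 2.32, 2.36, 2.3 and 2.42 in young and 2.06, 2.08 and 2.12 in old (-0.301 ± 0.0565, SE, limma adjusted p = 0.29). Array probe sets of ribosomal proteins can share sequence with their processed copies, so these values are uncertain by gene.

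In oxidative phosphorylation, 9 of 84 genes had a lower and 1 a higher mean at an unadjusted p under 0.05, against 5.27% and 4.5% of all genes, and 18 lay in the bottom 10% of the ranking, although the median was -0.0104. Complex I accounted for 5 of the 9 lower genes, but its share of the whole list was not computed, so nothing is read from this count. Ndufb7 apart, Ndufs8 (-0.134 ± 0.0336), Ndufa13 (-0.264 ± 0.0716) and Ndufa2 (-0.227 ± 0.0658) differed without overlap, and Ndufb10 with it. Ndufaf7, an assembly factor of the same complex, was the 1 higher gene, at 1.53, 1.53, 1.44, 1.44 and 1.43 in young and 1.9, 1.7 and 1.66 in old MPP4. Glycolysis genes had a median of -0.00592, with 10 of 23 higher. Their median was 0.00429 against young arrays 1 and 2 and -0.0127 against 3 to 5. At an unadjusted p under 0.05, 1 was higher and 3 lower, against 4.5% and 5.27% of all genes. The 3 lower genes included both lactate dehydrogenase subunits, with Ldhb at 1.03 to 1.25 in young and 0.843 to 0.994 in old (-0.237 ± 0.0538, SE, limma adjusted p = 0.323) and Ldha at -0.184 ± 0.0579, and Aldoa, the muscle-type aldolase, differed by -0.223 ± 0.0606. Got2, the mitochondrial aspartate aminotransferase, read 1.92, 2.0, 1.78, 1.75 and 1.74 in young and 2.28, 2.19 and 2.03 in old, higher on each old array. Insig1 and Srebf1, the sterol sensor partner and a master regulator of lipid synthesis, were lower on each old array, with differences of -0.312 ± 0.0804 and -0.227 ± 0.0587.

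Protein folding and turnover had single genes at both ends. Dnaja2, a cochaperone of Hsp70, read 2.82, 2.63, 2.78, 2.78 and 2.75 in young and 2.43, 2.47 and 2.54 in old MPP4 (-0.272 ± 0.0459, SE, limma adjusted p = 0.23). Psma4, an alpha subunit of the proteasome core, read 2.55, 2.88, 2.64, 2.57 and 2.62 in young and 3.0, 2.98 and 3.05 in old, that is in the opposite direction (0.356 ± 0.0733, SE, limma adjusted p = 0.315). The proteasome list had 10 of 45 genes in the top and 5 in the bottom 10%. Ulk2, a kinase that starts autophagy, and Lamp2, a lysosomal membrane protein, differed by 0.141 ± 0.0235 and 0.211 ± 0.0631, and Derl2, a channel component of endoplasmic reticulum degradation, by 0.188 ± 0.0516, all without overlap. Among chromatin regulators, Sirt1, a deacetylase, read 1.03 to 1.36 in young and 1.44 to 1.57 in old and Phc2, a Polycomb subunit, 0.887 to 1.1 in young and 0.83 to 0.886 in old.

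A few genes named above lie next to each other on the chromosome. In the gene order of RefSeq (GRCm38.p6), 48 of 19062 adjacent pairs of measured genes (0.252%) were without overlap in the same direction, and nothing is read from this share. Marchf5, Ide and Kif11 follow one another on chromosome 19, and their old minus young differences were 0.171 ± 0.0725, 0.54 ± 0.064 and 0.469 ± 0.149. Hhex, the next gene of the region, overlapped between groups (-0.113 ± 0.0979). Prr11, a proliferation-associated gene, and Ska2, of the complex that couples kinetochores to microtubules, are the divergent pair whose promoters are printed above. Prr11 read 2.05, 2.16, 1.51, 1.78 and 1.57 in young and 2.52, 2.52 and 2.36 in old, and Ska2 1.55, 1.83, 1.66, 1.82 and 1.86 in young and 2.1, 2.12 and 1.95 in old. Prr11 was lowest on young arrays 3 to 5, and its difference was 0.361 against young arrays 1 and 2 and 0.848 against 3 to 5. Plag1, a zinc finger transcription factor, and its neighbour Chchd7, a mitochondrial intermembrane protein, were both lower, Plag1 at 0.756, 0.898, 0.921, 1.11 and 1.06 in young and 0.325, 0.517 and 0.412 in old and Chchd7 at 1.57 to 2.21 in young and 1.32 to 1.56 in old. Plscr2 lies beside Plscr1 and was dim, at 0.0621 to 0.109 in young and 0.164 to 0.311 in old. Marchf5, Kif11 and Hhex were picked here after their values were seen.

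Large differences varied in how far they depended on the young arrays. Rps14, a protein of the small ribosomal subunit, had a difference of -1.58 ± 0.415 without overlap, which was -0.955 against young arrays 1 and 2 and -2.0 against 3 to 5. Lyrm7, a factor of complex III assembly, read 0.212, 0.314, 1.25, 1.1 and 1.21 in young and 0.19, 0.211 and 0.209 in old MPP4. The 2 lower young arrays lay close to the old ones, and the difference of -0.614 ± 0.275 came to -0.0599 against them and -0.983 against the other 3. Plxdc2, a plexin domain protein, showed the same division with 0.615, 0.687, 1.32, 1.15 and 1.43 in young and 0.559, 0.557 and 0.423 in old (-0.138 and -0.787). Rps6 differed by 0.275 and 1.18 in these 2 comparisons. By comparison, Hmmr (0.678 and 0.724), Myl10 (-0.851 and -0.833), Nfatc3 (0.317 and 0.27), Thy1 (0.397 and 0.413), Cd74 (0.611 and 0.523) and Klf2 (-0.221 and -0.203) had like differences against both sets of young arrays. Such genes were picked by t or by difference among genes without overlap on the same arrays. A high t favours a small spread among the young arrays, so the likeness is no independent evidence. Aldh1a1, a retinal dehydrogenase, read 0.348, 0.62, 0.991, 1.02 and 0.894 in young and 1.28, 1.96 and 1.45 in old, Tmem71 0.625, 0.638, 0.94, 0.817 and 0.767 in young and 1.55, 1.37 and 1.04 in old, and Myl10, a myosin light chain, 3.29, 2.32, 2.25, 3.18 and 2.91 in young and 2.18, 1.81 and 1.87 in old. These 3 genes had no overlap, as the choice required, but the values spread widely within each group.

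The same contrast was made in MPP3, myeloid-biased progenitors which the methods give as Flk2-/CD48+/CD150+ cells, from mice of the same ages (3 young and 3 old arrays). Whether a difference with a like sign in both populations was shared was not tested. Limma called 0 genes for the difference between the age differences (0.0%), with a smallest adjusted p of 0.2, and 658 (3.44%) and 542 (2.83%) had an unadjusted p under 0.05 in the direction of a higher and a lower MPP4 value. Hivep2 had the largest t, with 0.276 ± 0.0393 in MPP4, -0.182 ± 0.0524 in MPP3 and a difference between them of 0.458 ± 0.0651 (limma adjusted p = 0.2). Nfatc3 came next at 0.463 ± 0.0695 (limma adjusted p = 0.2), again with a negative value in MPP3 (-0.174). Ide had a positive value in both populations, 0.54 in MPP4 and 0.421 in MPP3, and so did Parpbp (0.396 and 0.242). For Cd74 the values were 0.558 and -0.284 and for Klf2 -0.21 and 0.00197, and for both the difference between populations missed the threshold (limma adjusted p = 0.574 and 0.838). Ndufb10, a complex I subunit, had the opposite pattern to Nfatc3, with -0.225 in MPP4 and 0.317 in MPP3 (limma adjusted p = 0.524). The spindle list had a median of 0.271 in MPP4 and 0.144 in MPP3, the MHC class II list 0.1 and -0.076, and lymphoid priming genes 0.0709 and -0.21.

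**Figure D5:**
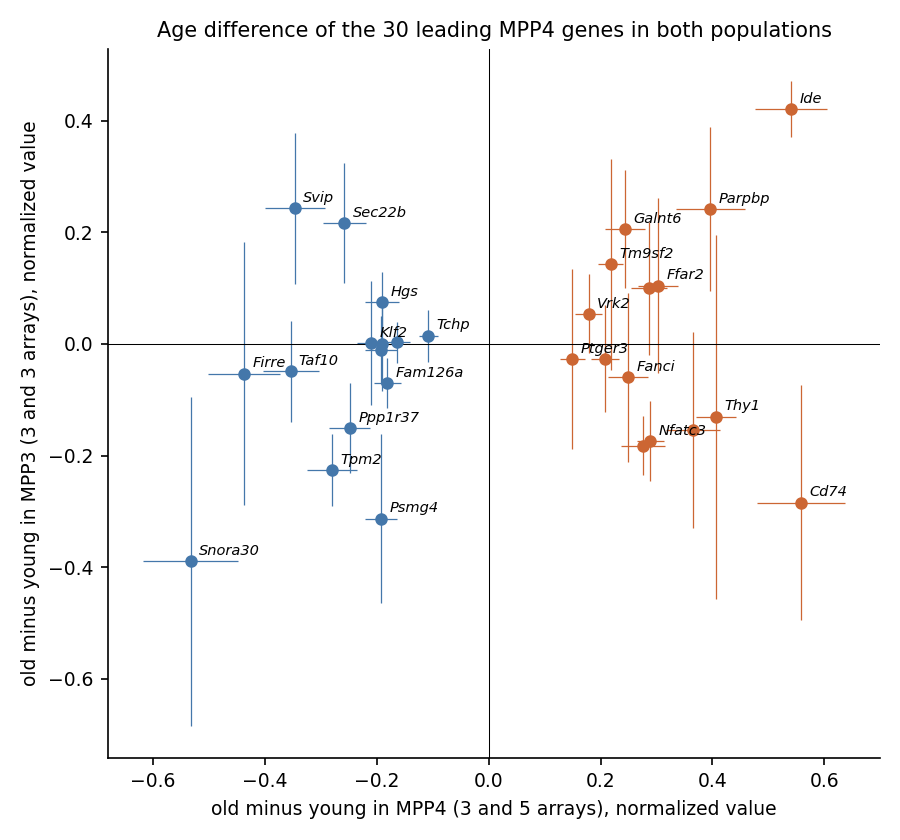
Old minus young difference in MPP4 (x axis) and in MPP3 (y axis) of the 15 highest (orange) and 15 lowest (blue) MPP4 genes, with standard errors of the limma fits as bars. The genes were chosen on the x axis, and Ide stands out with a positive difference in both populations while Nfatc3, Thy1 and Cd74 lie below 0 in MPP3.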

How the data were processed

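Per the labels and methods, RNA of each sample was amplified, labelled and hybridized to 1 Affymetrix Mouse Gene ST 1.0 array. The authors normalized the arrays by RMA (version not given in the sources used here) and mapped each array onto an exponential reference distribution, so the deposited values are a score of rank and hold no fold. Ranks were whole within 0.01 for 92.3% of values on a scale of 25307 probe sets. Of 22115 probe sets, 19236 had exactly 1 gene symbol in the platform annotation and 744 several, and 2135 were not listed. They gave 19155 genes, of which 76 had several probe sets. Signal over background and scan dates were not analysed here, and the number of arrays limits the precision.

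Old and young MPP4 were compared for all genes in limma 3.58.1 (R 4.3.3, lmFit and eBayes) with Benjamini-Hochberg adjustment, using only the 8 MPP4 arrays. The age difference of MPP4 was tested against that of MPP3 in a fit of all 4 groups, while the MPP3 values alone came from a fit of its 6 arrays. The SAM statistic was rebuilt as an alternative, using the median standard error over genes as the added constant and every one of the 56 possible splits, since the settings of the authors are not fully stated in the sources used here. On simulated data of 19155 genes with independent noise, the MPP4 fit recovered 61% of differences of 0.5 and 89% of differences of 1. It also made 12 false calls. The simulated noise held none of the structure shared between the young arrays, so these shares do not measure the power on the real arrays.

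Named genes are the 15 highest and 15 lowest by t among those without overlap, the largest differences, the leading members of each list, the SAM calls, sort markers and the extremes of the difference between populations. Other genes in the text are list members or neighbours picked after their values were seen. The members and the 65 lists, written from textbook knowledge, were chosen with earlier results of these data known. Ly6a and Ddx3y were not measured. Promoters and gene order came from RefSeq (GRCm38.p6), with 15214 genes matched to a promoter of 300 bases, the first row being used for 2570 with several. Motifs were searched on both strands. Alternatives left out single arrays or sets of arrays, dim genes or added array weights, a replicate block, another variance model and other scales.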

Additional observations from a re-analysis of the deposited data

Results flagged for a closer look

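Among 133 sets of 5 young values (70 named genes and 63 list means), 13 had 1 array so far from the other 4 that the gap divided by the range exceeded 0.71, where chance gives about 1 in 20. Of the genes, Ide had a ratio of 0.864 with young array 3 low, Parpbp 0.842 with young array 1 low, Svip 0.759 with young array 1 high and Sele, an adhesion molecule of endothelium, 0.749 with young array 2 high.

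Young array 1 was the far array in 6 of the 9 list means. It was low for G1 and S phase cyclins, CDKs and E2F (0.795), for mitochondrial ribosomal proteins (0.714) and for other DNA repair and checkpoint genes (0.826). It was high for the TGF-beta and BMP pathway (0.876), for autophagy and lysosome (0.782) and for chemokine receptors, adhesion and homing (0.729). Young array 4 was high for HSC aging genes (0.816) and erythroid genes (0.804), and young array 2 for mast cell, basophil and eosinophil genes (0.866).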

How the results depend on the processing

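The count of limma calls was 0 with all arrays and under most alternatives. It was 14 by SAM, 1 in 1 fit of all 4 groups, 304 with array weights (2668 genes higher and 2791 lower at an unadjusted p under 0.05) and 2203 with young arrays 3 to 5 alone (3110 higher and 2830 lower). Without the dimmest genes, with 12770 left, 603 were lower. Leaving out 1 array gave 0 to 15 calls, 605 to 1457 genes higher and 612 to 1592 lower. Without young array 1 there were 2 calls, without young array 2 15 and without old array 1 1, and 1457 were higher without young array 1, 1592 lower without young array 2, 612 lower without old array 2 and 663 lower without old array 3. For the difference against MPP3, the count of 0 became 2 with a robust variance trend, 574 with array weights, 4 without young MPP3 array 1 and 10 without old MPP3 array 3, in a range of 0 to 10 over arrays left out. The cause was not tested. Among the named genes, directions turned for Vwf with array weights (0.0271), with young arrays 3 to 5 alone (0.0436) and without single arrays (-0.0346 to 0.0148). They turned with young arrays 1 and 2 alone for Dntt (-0.0140), Flt3 (-0.0760), Il7r (-0.0529), Mpo (-0.179) and Sh2d1b1 (-0.0106), and without the arrays with Xist above 1 for Xist (0.0523) and Kit (0.0167). With young arrays 3 to 5 alone Cd34 turned (0.00377), and without single arrays Slamf1 (range -0.0164 to 0.00208), Kit (-0.0703 to 0.0259), Cd34 (-0.0657 to 0.00739) and Sh2d1b1 (-0.00896 to 0.00588). The replicate block gave 0 calls, with 749 genes higher and 802 lower, and turned Mpo (-0.0205) and Sh2d1b1 (-0.00297). Arrays of the same number correlated at 0.261, -0.033 and 0.13 in their deviations from the group means. Over all pairs of a young and an old array the range was -0.281 to 0.261. Whether the numbers pair the samples was not tested.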
